A study of Mus musculus with 16 samples.

Results

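The 882 enhancer regions described here had lower ATAC-seq counts in cells without KAT6B than in wild-type cells. They were chosen from a deposited table of 20792 regions named for enrichment of the histone marks H3K4me1 and H3K27ac, of which 20550 lie on autosomes. A region was kept when its mean level over the knockout and wild-type libraries was 10 CPM (counts scaled to a common library total) or more, when all 4 knockout values lay below all 4 wild-type values, and when the knockout mean divided by the wild-type mean was 0.71 or less. Of the 14181 autosomal regions that reached the level minimum, 6.22% passed all criteria. The knockout and wild-type values therefore chose the regions and are given below as a description. The Tg(Kat6b) libraries and their controls took no part in the choice, and the tests reported here are made on them.

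Neural stem and progenitor cells from the dorsal telencephalon of mouse embryos at stage E12.5 were grown in culture as neurospheres, and ATAC-seq was run on 50000 cells of each embryo with 50000 Drosophila S2 cells added as a spike-in. Loss of KAT6B was studied in 4 Kat6b-/- embryos (KO) beside 4 wild-type embryos (WT C57BL/6), both on the C57BL/6 strain. Gain was studied in 4 embryos with the Tg(Kat6b) transgene (Tg), in which Kat6b is overexpressed, beside 4 wild-type embryos (WT FVB x BALB/c), both of FVB x BALB/c hybrid strain. The series text gives this background as a necessity, since the transgenic mice do not survive on C57BL/6, so loss and gain were measured in different strains. The labels do not give the promoter that drives the transgene, the sex of the embryos or their litters.

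KAT6B is an enzyme that acetylates histone H3, and it acts as part of a larger complex with a BRPF scaffold protein. Enhancers are stretches of DNA that raise transcription of genes that may lie far away. H3K4me1 marks enhancers in general and H3K27ac those that are active. Bound transcription factors leave the DNA there open to the transposase that ATAC-seq uses, so that a count in a region measures how open it is. CPM was not divided by region length, so the levels of regions of unlike length do not rank their openness. ATAC-seq itself reads neither histone mark, and the marks were not measured in these libraries. In the dorsal telencephalon, which gives rise to the neocortex, such regions control genes of progenitor maintenance and neuron production. The table names a region by its chromosome and start in the mouse build mm9 and gives no gene, and no gene is assigned to a region here.

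As a check of the labels, promoter counts of Kat6b were 240 ± 5.62 CPM (SD, n = 4) in WT FVB x BALB/c but 3042 ± 261 in Tg, while KO stood at 295 ± 3.03 and WT C57BL/6 at 275 ± 20.0. Enhancer-region counts were 894485 to 2552692 per library, and the median of the 882 regions held 26 to 71 counts, the fewest in the FVB x BALB/c controls and the most in Tg. Counts on chromosome Y were 37.9 to 70.8 CPM in the 12 other libraries but 1.10, 0.520, 0.876 and 10.1 CPM in Tg replicates 1 to 4. Summed promoter CPM of 9 progenitor markers (Sox2, Pax6, Nes and others) was 919 to 981 in WT C57BL/6, 972 to 1021 with Kat6b deleted, 777 to 840 in the FVB x BALB/c controls and 1048 to 1103 in Tg, and no marker of any list was at 0. In the same order the summed level of 6 neuron markers was 185 to 194, 137 to 154, 158 to 185 and 125 to 135. That of 7 mesenchyme and meninges markers was 204 to 212, 175 to 190, 156 to 159 and 122 to 132, and that of 5 ventral telencephalon markers 142 to 155, 124 to 130, 106 to 132 and 115 to 121. For 5 microglia and leukocyte markers it was 25.3 to 35.9, 24.7 to 30.2, 33.2 to 52.1 and 24.7 to 32.3, for 5 endothelial markers 83.8 to 91.8, 70.8 to 87.0, 77.7 to 90.3 and 66.4 to 75.2, and for 4 erythroid markers 69.9 to 99.5, 86.0 to 98.6, 94.2 to 110 and 68.4 to 75.1. The sums of neuron and of mesenchyme markers were thus lower in every KO and every Tg library than in any of their own controls. The ventral sum was lower in every KO library. In every Tg library the microglial, endothelial and erythroid sums were lower and the progenitor sum was higher. The markers of a list did not all go one way. Among progenitor markers mean CPM at Sox2 was 203 in Tg and 126 in its controls, at Lhx2 30.5 and 30.4, and at Pax6 6.93 and 11.2. Among neuron markers it was 73.5 and 102 at Syt1 but 24.2 and 23.8 at Tubb3. Among mesenchyme markers it was 8.61 and 14.2 at Dcn but 33.3 and 30.4 at Col1a1. In KO and its controls it was 46.1 and 67.4 at Prrx1 but 41.3 and 35.0 at Twist1. The part of these markers, and of chromosome Y, in the results below was not tested.

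In the knockout the 882 regions were lower by about the same share in each of the 4 libraries. The median region stood at 47.3 to 48.3 CPM in the 4 WT C57BL/6 libraries and at 29.1 to 29.5 in the 4 KO libraries. Over all 14181 regions of mean CPM 10 or more the same medians were 45.0 to 46.4 and 44.4 to 44.6. The wild-type level of the 882 regions was therefore close to that of the regions they were drawn from, and their knockout level lay below it, as the choice requires. In bulk libraries, fewer cells of a type that carries an open region and less openness per cell cannot be told apart. As a share of all enhancer-region counts they held 5.62% to 5.67% in WT C57BL/6 and 3.43% to 3.46% in KO.

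**Figure D1:**
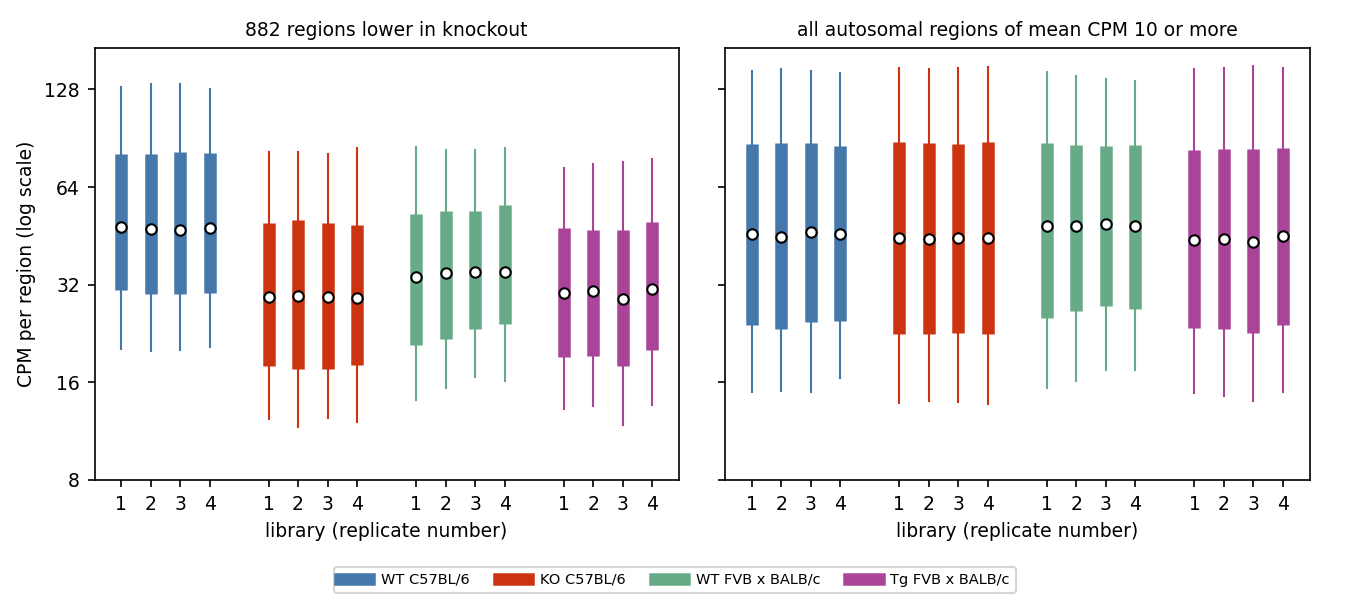
CPM per region (log scale) in each of the 16 libraries, for the 882 regions lower in knockout (left) and for all 14181 autosomal regions of mean CPM 10 or more (right). Circles are medians, thick bars run from the 25th to the 75th and thin lines from the 10th to the 90th percentile of regions. At left KO (29.1 to 29.5), Tg (28.9 to 31.1) and the FVB x BALB/c controls (33.8 to 35.0) have lower medians than the C57BL/6 controls (47.3 to 48.3), and the medians at right lie between 43.4 and 49.1 throughout.

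The drop was modest at most of the regions. The median ratio of KO to WT was 0.630, with 25th and 75th percentiles of 0.569 and 0.675, while over all 14181 regions the median was 0.973. A ratio of 0.5 or less was found at 83 regions, one above 0.5 and up to 0.6 at 236, and one above 0.6 at 563. The criterion that the groups do not overlap was met, with KO lower, by 1881 regions, or 13.3% of the 14181, and the ratio criterion by 1097, of which 215 had overlapping groups. The same rule applied in the other direction kept 616 regions that were higher in KO. The count of 882 depends on the scaling, since TMM library sizes kept 658 and took the median ratio over the 14181 to 1.01. The count in the other direction was not made with TMM library sizes. At the ratio limit the last region kept was that starting at 129427963 on chromosome 1 (2014 bp), at 60.0 CPM in WT and 42.6 in KO, and the first left out was that at 122549700 on chromosome 6 (2684 bp), at 30.4 and 21.6. At the level limit the last region kept was that at 9969017 on chromosome 2 (392 bp), at 12.2 and 7.86 CPM, and the first left out was that at 110075507 on chromosome 12 (650 bp), at 12.2 and 7.63.

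**Figure D2:**
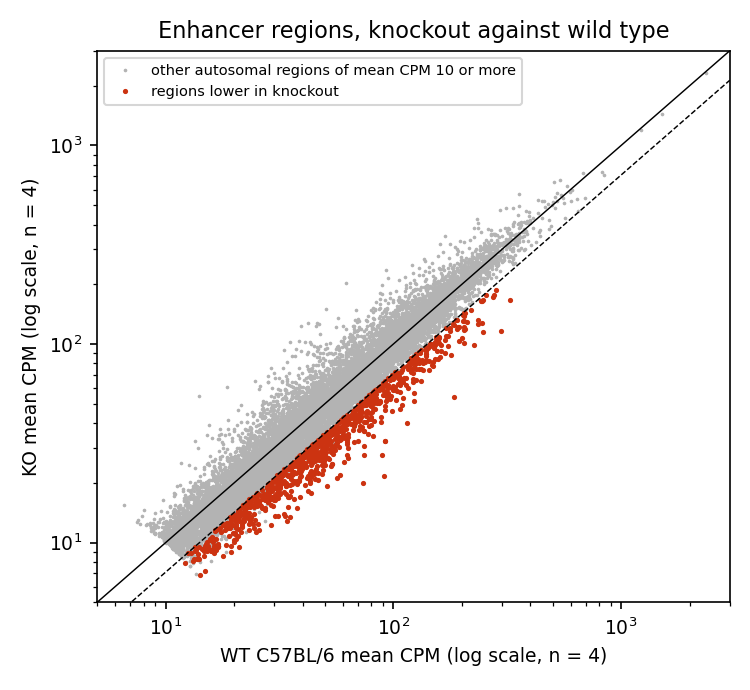
Mean CPM in KO against mean CPM in WT C57BL/6 (both log scale, n = 4 each) for 14181 autosomal enhancer regions, with the 882 chosen regions in red. The solid line is equality and the dashed line a ratio of 0.71. The chosen regions run from 12.2 to 325 CPM in WT and most lie just under the dashed line; the region on chromosome 14 with no count in KO cannot be drawn on a log axis.

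The lowest ratio belonged to the region starting at 22366417 on chromosome 14 (mm9, 5015 bp). It stood at 81.7, 75.0, 71.0 and 83.6 CPM in WT C57BL/6 replicates 1 to 4, together 402 counts, and had no count in any KO library. Taking 3 counts as the floor of each KO library, the level was at least 43.2-fold lower in KO. The 22 other regions of mean CPM 10 or more within 1 Mb had ratios of 0.588 to 1.43 with a median of 0.961, and 1 of them, 929 kb away, was among the 882. In the other strain the same region stood at 92.8, 96.0, 103 and 104 CPM in WT FVB x BALB/c and at 692, 697, 615 and 552 in Tg. It rose in Tg by 2.79 on the log2 scale (SE 0.08, edgeR quasi-likelihood adjusted p = 2.6e-114), more than any other of the 882. The region at 22321389 beside it, 1161 bp long and not among the 882, stood at 1572 CPM in Tg and 103 in its controls, and at 101 in KO and 115 in WT C57BL/6. Read counts follow the number of DNA copies as well as openness, and copies were not counted here, so these cannot be told apart at this place.

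Outside that place the lowest ratios were 0.238 to 0.375. The region at 123299911 on chromosome 2 (1768 bp) stood at 94.4, 85.0, 88.5 and 95.3 CPM in the WT C57BL/6 libraries and at 24.6, 21.9, 16.8 and 23.0 in the KO libraries. The region at 101141320 on chromosome 12 (1893 bp) stood at 61.5, 67.5, 88.5 and 77.4 in WT and at 20.5, 21.3, 21.2 and 17.0 in KO. The region at 62968123 on chromosome 13 (3427 bp) stood at 190, 180, 203 and 165 in WT and at 56.4, 54.7, 55.6 and 49.4 in KO. In these 3 regions the lowest WT library stood far above the highest KO library, and WT replicates were spread more widely than KO replicates on chromosome 12. The region at 43753472 on chromosome 9 (1526 bp) was at 88.8 ± 5.33 CPM in WT and 27.6 ± 6.36 in KO (SD, n = 4). For that at 25449391 on chromosome 16 (2035 bp) these means were 115 ± 10.3 and 40.2 ± 5.43, and for that at 33271675 on chromosome 1 (2001 bp) 91.5 ± 3.50 and 32.4 ± 5.88. The region at 83684044 on chromosome 2 (1874 bp) was at 74.3 ± 6.13 in WT and 27.6 ± 0.769 in KO. That at 17999473 on chromosome 13 (2001 bp), the lowest of the 10 in WT, was at 34.3 ± 3.59 and 12.9 ± 2.58.

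Another of the 10 lay close to the first on chromosome 2. The region at 123176046 (2093 bp), 124 kb from that at 123299911, stood at 67.5, 101, 96.4 and 105 CPM in WT C57BL/6 and at 33.3, 29.8, 35.1 and 32.4 in KO. WT replicate 1 was the lowest of its group and still above every KO library. The 4 other regions of mean CPM 10 or more within 500 kb of the pair had ratios of 0.743 to 1.54, among them a 5791 bp region at 123211427 between the pair, at 278 CPM in WT and 285 in KO. The pair were thus low beside a longer region of higher CPM whose level hardly differed. Wild-type cells of the other strain had means of 30.9 CPM at 123176046 and 49.9 at 123299911, below the 92.4 and 90.8 of WT C57BL/6.

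**Figure D3:**
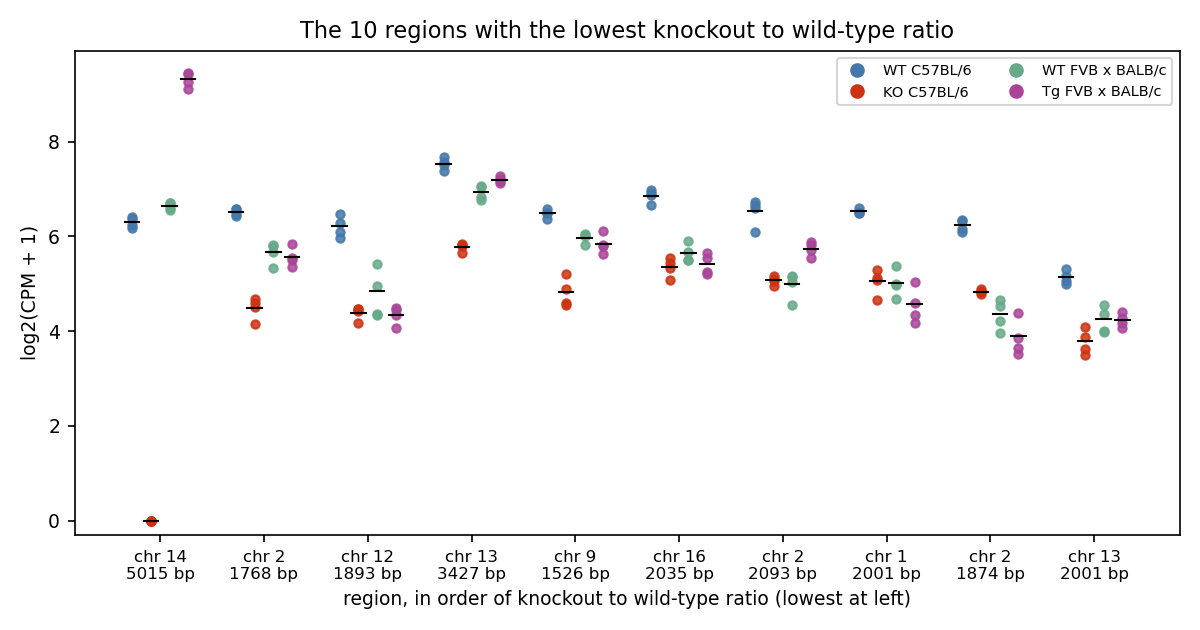
log2(CPM + 1) of the 10 regions with the lowest ratio of KO to WT C57BL/6, in order of that ratio, in each of the 16 libraries (points; black lines are the log2 of the group mean + 1, n = 4). KO lies below WT C57BL/6 in all 10 by the rule; WT FVB x BALB/c lies below WT C57BL/6 in 9, and the first, on chromosome 14, is at 0 in KO and at 552 to 697 CPM in Tg.

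The 5 of the 882 regions with the highest mean CPM in wild-type cells had ratios of 0.391 to 0.666. The region at 32034532 on chromosome 8 (3019 bp) had the highest wild-type level, 316, 348, 309 and 328 CPM, and stood at 156, 175, 166 and 170 in KO. The region at 76115816 on chromosome 5 (1510 bp) stood at 274, 303, 296 and 313 in WT and at 108, 119, 113 and 123 in KO. The regions at 111773713 on chromosome 8 (5298 bp), 92155116 on chromosome 12 (2679 bp) and 42828336 on chromosome 12 (3101 bp) had WT means of 282, 277 and 274 CPM and ratios of 0.666, 0.640 and 0.630. In all, 151 regions had a WT mean of 100 CPM or more and another 151 one under 25 CPM.

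By the median over regions, replicates of the 882 varied somewhat more than those of the 14181 in every group but WT C57BL/6. The median coefficient of variation over regions was 0.110 in WT C57BL/6 and 0.119 in KO, which the rule itself holds down, and 0.124 in Tg and 0.147 in its controls, which it does not. Over the 14181 regions these were 0.118, 0.103, 0.100 and 0.127 in the same order. Length was not used by the rule. The 882 regions were 3 to 6180 bp long with a median of 2001 bp, the same median as that of the 14181. Regions of exactly 2001 bp made up 19.5% of the 882 and 11.3% of the 14181, regions under 500 bp 2.72% and 3.88%, and regions of 3000 bp or more 14.2% and 13.2%. The longest, at 150672437 on chromosome 2 (6180 bp), stood at 90.3 CPM in WT and 61.7 in KO, and the shortest, a 3 bp entry at 152224884 on chromosome 2, at 38.5 and 24.3. How reads were assigned to entries this short is not stated in the labels.

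The 882 regions were spread over all autosomes. The share of regions of mean CPM 10 or more that were among them ran from 4.78% on chromosome 11 to 8.63% on chromosome 13, where 59 were found. Chromosomes 1, 2 and 6 held the most, 63, 62 and 60. Some lay close together. Another of the 882 started within 100 kb of 153 of them (17.3%), while 11.8% of the 13299 regions left out had one of the 882 within that distance. The difference was not tested, since regions are not replicates. When regions were linked by gaps of 100 kb or less, 729 stood alone, 61 pairs formed, and 9 groups held 3 regions and 1 held 4.

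The group of 4 lay on chromosome 16 over 108 kb. The region at 33833914 (3470 bp) stood at 126 CPM in WT and 87.7 in KO, that at 33883365 (2001 bp) at 59.0 and 34.1, that at 33934486 (1806 bp) at 61.1 and 39.8, and that at 33941475 (2001 bp) at 88.1 and 61.4. The 2 other regions between them, at 33859962 and 33916816, had ratios of 0.845 and 1.27, so the low level was not shared by all regions of the stretch. In Tg the region at 33934486 rose by 0.39 on the log2 scale (SE 0.14, edgeR adjusted p = 0.017), from 41.8, 37.9, 30.8 and 47.2 CPM in the WT FVB x BALB/c libraries to 45.0, 57.7, 46.9 and 43.0. These groups overlapped, and the call was lost without WT FVB x BALB/c replicate 3 (0.29, adjusted p = 0.13) or Tg replicate 2 (0.31, adjusted p = 0.092), with library totals (0.30, 0.072), with DESeq2 (0.39, 0.076) and with libraries thinned to equal depth (0.26, 0.31). The other 3 did not pass in Tg, with log2 changes of 0.16, 0.27 and 0.22 (edgeR adjusted p = 0.34, 0.15 and 0.11), but passed with gene-end factors (0.36, 0.48 and 0.42, adjusted p = 0.032, 0.010 and 0.0051). That at 33941475 also passed without WT FVB x BALB/c replicate 3 (0.32, adjusted p = 0.026) or Tg replicate 1 (0.29, adjusted p = 0.043). The 2 regions between them that the rule left out both rose in Tg. The log2 change was 0.49 at 33859962 (SE 0.11, edgeR adjusted p = 0.00013) and 0.43 at 33916816 (SE 0.09, edgeR adjusted p = 9.4e-06).

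The fullest stretch of 2 Mb, picked after its count was seen, lay between 112 and 114 Mb on chromosome 11 and held 10 of the 882 among 36 regions of mean CPM 10 or more (27.8%). Its 10 had ratios of 0.473 to 0.709, and the 26 others 0.722 to 1.46 with a median of 0.865. The region at 112844683 (2893 bp), the highest of the 10 in WT C57BL/6, stood at 92.6 CPM in KO and 162 in its controls. It stood at 46.5 in Tg and 49.5 in its controls. That at 112515335 (1747 bp) had the lowest ratio, at 49.0 and 23.2 CPM in WT C57BL/6 and KO. Among the others of high level, that at 112363565 (4304 bp) stood at 263 CPM in WT and 262 in KO, that at 112672440 (3923 bp) at 272 and 246, and that at 113005470 (2528 bp) at 121 and 105. That at 113843275 (2177 bp), just outside the ratio limit, stood at 124 and 89.8 CPM, and that at 113473057 (2001 bp) was higher in KO, at 125 and 141. In Tg, where 18.7% of all regions tested rose and 16.4% fell, 3 of the 10 rose and none fell: those at 112096263 (log2 change 0.79, SE 0.12, edgeR adjusted p = 6.4e-10), 112851229 (0.48, SE 0.16, 0.0078) and 113648437 (0.31, SE 0.08, 0.0016). Of the 26 others in the stretch, 7 rose in Tg and 1 fell, so rises there were not particular to the chosen regions. Over all 10 groups of 3 or more regions, 31 regions in all, 3 rose in Tg, 8 fell and 20 did not pass, and 15 regions left out by the rule lay inside them.

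The ratios of regions near the 882 but not among them were set beside those of all regions left out. Over all 13299 regions left out the median ratio was 0.986 and 53.2% had a ratio under 1. Of the 160 regions left out that started within 10 kb of one of the 882, 63.8% had a ratio under 1, and their median was 0.951. Between 10 and 25 kb the median was 0.974, between 25 and 50 kb 0.962, between 50 and 100 kb 0.975, and between 100 and 250 kb 0.980. Of the 5409 regions more than 1000 kb away 50.7% had a ratio under 1, with a median of 0.996. All of these medians are nearer to 1 than the 0.630 of the 882 themselves. They also move with the scaling: TMM library sizes took the median over the 14181 regions from 0.973 to 1.01, so the side of 1 on which a median falls is not read here. They use the libraries of the rule and are given with no test.

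The 882 regions had library medians of 33.8 to 35.0 CPM in WT FVB x BALB/c, below the 47.3 to 48.3 of WT C57BL/6. They held 3.76% to 3.93% of enhancer-region counts there. The regions of mean CPM 10 or more as a whole stood at 48.4 to 49.1 CPM in WT FVB x BALB/c and 45.0 to 46.4 in WT C57BL/6. The regions were chosen for high values in these same WT C57BL/6 libraries, which raises their level there, so this gap between strains is a description and was not tested. Among the named regions, that at 76115816 on chromosome 5 stood at 104 CPM in WT FVB x BALB/c, with 116 in KO and 297 in WT C57BL/6. That at 32034532 on chromosome 8 stood at 115 CPM there, below its 167 in KO and 325 in WT C57BL/6. Others were above their C57BL/6 level, such as that at 152197457 on chromosome 5 (2765 bp), at 162 CPM there, with 81.8 in KO and 131 in WT C57BL/6.

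The regions were then tested in cells that carry the Tg(Kat6b) transgene, whose libraries the choice had not used. Of the 881 regions that passed the low-count filter, 89 rose in Tg (10.1%), 197 fell (22.4%) and 595 did not pass (edgeR quasi-likelihood test on the 8 FVB x BALB/c libraries, adjusted p under 0.05 over 16354 regions). Over all regions tested 18.7% rose and 16.4% fell, and over the 14176 tested autosomal regions of mean CPM 10 or more 21.0% rose and 17.9% fell. Rises were thus scarcer and falls commoner among the 882 than in the background. Their median log2 change was -0.11, with 25th and 75th percentiles of -0.36 and 0.11, beside a median of -0.02 over the 14176. This direction depends on the scaling of the libraries, since with factors taken from windows downstream of gene ends the median of the 882 moved to 0.092 and that of the 14176 to 0.19, with 178 of the 882 higher and 62 lower. Among the calls of the 882, 31.1% were rises, against 74.2% with gene-end factors and 19.8% with library totals. The median of the 882 lay below that of the 14176 under each of these scalings. Every Tg library had fewer chromosome Y counts than any of its controls (at most 10.1 CPM against at least 54.7). Its summed signal at neuron markers was also lower (at most 135 CPM against at least 158). The part of both in the calls above was not tested. The filter removed the region at 10643394 on chromosome 15 (296 bp).

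**Figure D4:**
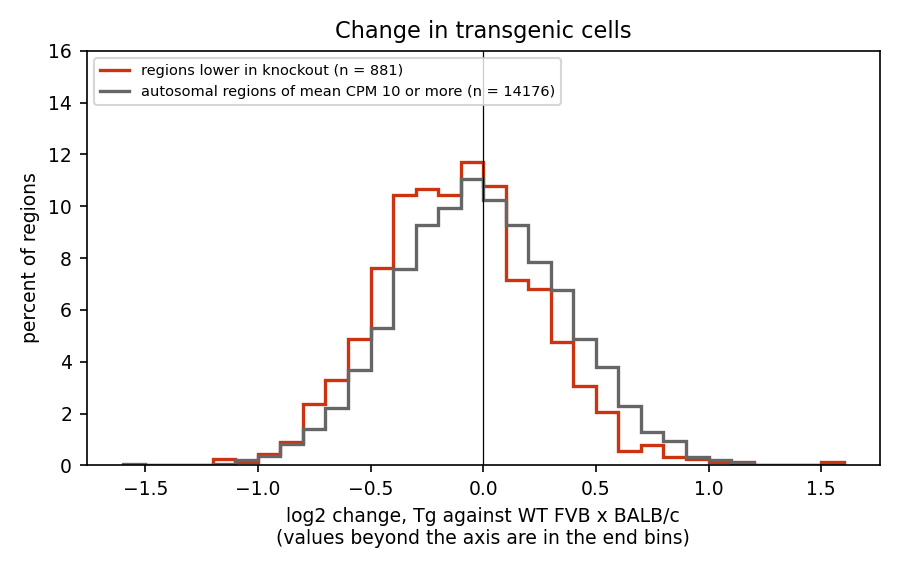
Distribution of the log2 change in Tg against WT FVB x BALB/c, in percent of regions per bin of 0.1, for the 881 tested regions lower in knockout (red) and the 14176 tested autosomal regions of mean CPM 10 or more (grey). The red line sits slightly to the left, with medians of -0.11 and -0.02.

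Most changes in Tg were small. Only 3 of the 882 rose by 2-fold or more and 3 fell by as much, among them the chromosome 14 region with no knockout count. Overlap between groups was judged on CPM from column sums, without the TMM factors of the test. All 4 Tg values lay above all 4 WT values at 50 regions (5.68%, against 14.3% of the 14176) and below them at 212 (24.1%, against 20.2%). In the test, library totals took the median log2 change of the 14176 from -0.019 to -0.105. With TMM factors falls outnumbered rises at each size of the knockout ratio. Of the 83 with a ratio of 0.5 or less, 9 rose (10.8%) and 22 fell (26.5%). Of 235 tested with a ratio above 0.5 and up to 0.6, 23 rose (9.79%) and 54 fell (23.0%). Of 563 with a higher ratio, 57 rose (10.1%) and 121 fell (21.5%). Over the 14176 these shares were 21.0% and 17.9%. The median log2 changes of the 3 classes were -0.21, -0.12 and -0.10. With gene-end factors 178 of the 882 rose and 62 fell, and the classes were not counted under that scaling. The 89 that rose and the 197 that fell had a higher level in WT C57BL/6, with medians of 78.7 and 62.6 CPM, than the 595 not called, at 42.5. Calls were also more frequent at higher levels in the background (below), where more counts ease a call. The difference is therefore not read as a trait of the regions called. Median ratios of KO to WT of those that rose, fell and were not called were 0.618, 0.635 and 0.630. Of 46 tested regions shorter than 1000 bp, 6 rose (13.0%) and 2 fell (4.35%), where 16.5% and 7.35% of the background of that length did. Of 125 of 3000 bp or more, 19 rose (15.2%) and 28 fell (22.4%), where 32.7% and 16.3% of the background did.

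The share of rises in Tg was larger at regions of higher CPM, both among the 882 and in the background. When the 14176 regions were split into 4 equal level classes by their mean CPM over the 8 FVB x BALB/c libraries, at 25.6, 46.8 and 85.6 CPM, 2.89% of the 311 chosen regions in the lowest class rose and 13.5% fell. In the next class 8.14% of 307 rose and 25.1% fell, in the third 16.4% of 189 rose and 29.6% fell, and in the highest 32.4% of 74 rose and 29.7% fell. In the background the rises in these classes were 3.75%, 11.1%, 21.2% and 47.9%, and the falls 11.4%, 20.1%, 24.3% and 15.7%. In each class the 882 thus held a smaller share of rises and a larger share of falls than the background, the gap being widest in the highest class, where it rests on 74 regions. With offsets that follow abundance 103 of the 882 rose and 153 fell, and their median moved to -0.052, beside 0.00 over the 14176.

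**Figure D5:**
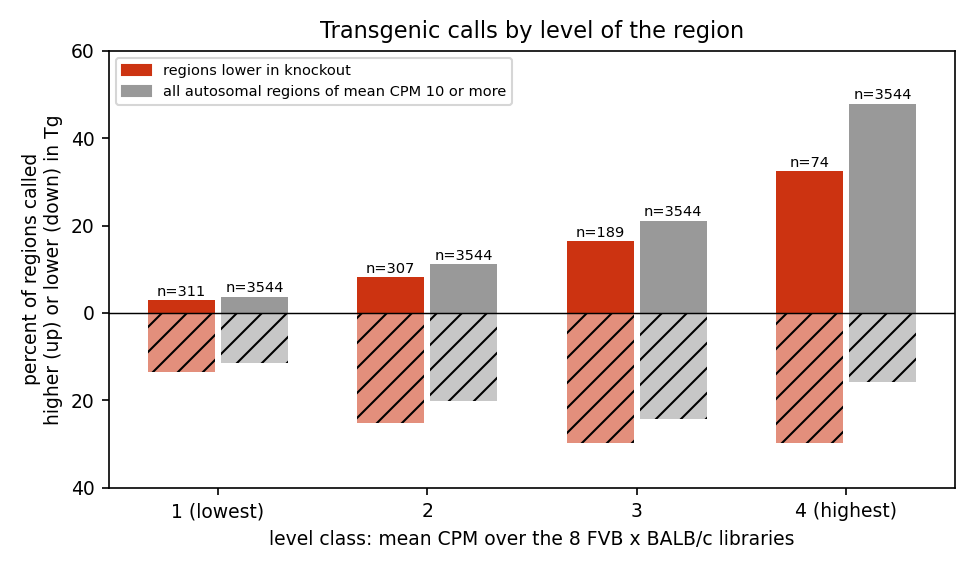
Percent of regions called higher (upward bars) or lower (hatched, downward bars) in Tg than in WT FVB x BALB/c, by class of mean CPM over the 8 libraries (4 classes of equal size), for the 882 regions (red) and all tested autosomal regions of mean CPM 10 or more (grey); n is the number tested. In the highest class 32.4% of the red and 47.9% of the grey regions were higher, and 29.7% and 15.7% lower.

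Among single regions the largest rises in Tg outside chromosome 14 were about 2-fold. The region at 30325480 on chromosome 17 (2198 bp) stood at 44.2, 47.6, 45.8 and 59.3 CPM in the WT FVB x BALB/c libraries and at 88.3, 98.3, 97.2 and 84.2 in the Tg libraries. It rose by 1.02 on the log2 scale (SE 0.11, edgeR adjusted p = 1.6e-15), with no overlap between groups. In the C57BL/6 libraries it had stood at 102 to 117 CPM in WT and 61.4 to 68.0 in KO, so it lay below WT C57BL/6 in all FVB x BALB/c libraries. The region at 57710074 on chromosome 9 (2001 bp) stood at 28.9, 37.1, 40.0 and 49.9 CPM in WT FVB x BALB/c and at 70.8, 76.9, 66.1 and 62.3 in Tg, a rise of 0.97 (SE 0.13, edgeR adjusted p = 1.3e-11). The short region at 86817126 on chromosome 12 (286 bp) rose from 10.4, 8.88, 11.7 and 10.8 CPM to 24.1, 19.8, 27.2 and 18.9 (log2 change 1.19, SE 0.22, edgeR adjusted p = 1.8e-06). The 192 bp region at 125935651 on chromosome 8 rose from 3.69, 2.42, 5.83 and 10.8 to 8.23, 9.36, 10.5 and 7.89 (0.93, SE 0.33, edgeR adjusted p = 0.020). Its groups overlapped, and it did not pass without WT FVB x BALB/c replicate 1 (0.76, adjusted p = 0.11), WT FVB x BALB/c replicate 2 (0.69, 0.13) or Tg replicate 3 (0.83, 0.069).

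The largest falls in Tg were of like size. The region at 104751824 on chromosome 12 (2001 bp) stood at 165, 166, 147 and 176 CPM in WT FVB x BALB/c and at 56.5, 56.2, 56.5 and 95.6 in Tg. It fell by 1.20 on the log2 scale (SE 0.11, edgeR adjusted p = 1.1e-14), with Tg replicate 4 apart from the other 3 and still below every WT library, and the change was -1.42 without that replicate. In C57BL/6 the same region was at 114 to 137 CPM in WT and 60.2 to 95.5 in KO, so it was low with both loss and gain. On chromosome 16 the region at 87501812 (1926 bp) fell from 83.5, 75.9, 75.8 and 79.5 to 24.7, 33.3, 33.7 and 39.9 CPM (log2 change -1.16, SE 0.12, edgeR adjusted p = 8.2e-17). On chromosome 5 that at 152197457 fell from 177, 169, 144 and 158 to 75.7, 78.0, 70.5 and 90.3 CPM (-0.96, SE 0.09, edgeR adjusted p = 1.9e-20). The groups did not overlap in either of these. On chromosome 13 that at 4655771 (2001 bp) fell by 0.98 from a mean of 42.0 to 20.0 CPM (SE 0.16, edgeR adjusted p = 3.2e-08), and the 228 bp region at 114298567 on chromosome 9 by 1.03 from 14.8 to 6.57 CPM (SE 0.27, edgeR adjusted p = 0.00099).

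Of the 10 regions with the lowest knockout ratio, 3 rose in Tg and none fell, where 18.7% of all regions tested rose and 16.4% fell. Beside the chromosome 14 region, that at 123176046 on chromosome 2 rose from 31.9, 22.6, 34.1 and 35.0 CPM to 55.4, 45.8, 57.8 and 51.3 (log2 change 0.87, SE 0.14, edgeR adjusted p = 3.6e-08), with no overlap. The region at 62968123 on chromosome 13 rose from 131, 132, 108 and 113 to 148, 154, 142 and 139 CPM (0.33, SE 0.09, edgeR adjusted p = 0.00087), a call lost with offsets that follow abundance (0.17, adjusted p = 0.10). The other 7 did not pass, with log2 changes from -0.38 at 83684044 on chromosome 2 (edgeR adjusted p = 0.16) to 0.03 at 17999473 on chromosome 13 (0.92). Of these, 3 passed as falls under another setting: that at 33271675 on chromosome 1 without Tg replicate 2 (-0.49, adjusted p = 0.029) and with library totals (-0.41, 0.050), that at 83684044 without Tg replicate 4 (-0.60, 0.036) and that at 101141320 on chromosome 12 with libraries thinned to equal depth (-0.63, 0.046). The region at 123299911, the partner of the first on chromosome 2, was among the 7, at 49.8, 39.5, 55.0 and 55.2 CPM in the wild-type and 40.0, 56.7, 45.5 and 44.3 in the Tg libraries (0.00, SE 0.13, edgeR adjusted p = 0.99). Its groups overlapped.

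Of the 5 regions with the highest CPM in WT C57BL/6, 2 fell in Tg and none rose. Of the background in the highest level class, 47.9% rose and 15.7% fell. In the third class, where the region at 76115816 lies, 21.2% of the background rose and 24.3% fell. That at 76115816 on chromosome 5 fell from 121, 104, 104 and 87.6 to 58.7, 57.2, 64.8 and 60.5 CPM (log2 change -0.73, SE 0.10, edgeR adjusted p = 2.4e-10). That at 32034532 on chromosome 8 fell from 116, 121, 114 and 108 to 74.6, 84.2, 78.8 and 98.7 CPM (-0.36, SE 0.10, edgeR adjusted p = 0.0010), and was not called with gene-end factors (-0.15, adjusted p = 0.36). Both had their lowest group mean in Tg, while a high level in WT C57BL/6 was what they were chosen for. The 3 others did not pass, the nearest being that at 111773713 on chromosome 8 (0.16, SE 0.07, edgeR adjusted p = 0.077), which passed without WT FVB x BALB/c replicate 4 (0.19, adjusted p = 0.045) or Tg replicate 3 (0.19, adjusted p = 0.048), with the 4 high-count regions kept (0.18, adjusted p = 0.047) and with gene-end factors (0.37, adjusted p = 0.0035). With offsets that follow abundance the regions at 92155116 (-0.27, adjusted p = 0.0029) and 42828336 (-0.24, adjusted p = 0.021) on chromosome 12 passed as falls. The longest region, at 150672437 on chromosome 2, had a log2 change of -0.21 (SE 0.10, edgeR adjusted p = 0.080), and passed as a fall with library totals (-0.30, adjusted p = 0.0083) and with offsets that follow abundance (-0.29, adjusted p = 0.012). The 3 bp entry at 152224884 on the same chromosome rose by 0.75 (SE 0.18, edgeR adjusted p = 0.00023), a call lost with libraries thinned to equal depth (0.54, adjusted p = 0.079).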

How the data were processed

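ATAC-seq was run on 16 cultures, 4 per group, each from a separate embryo per the series text. The authors deposited whole-number read counts per region; reads were counted with featureCounts on mm39, per the submitters' processing notes, while regions are named by mm9 starts. No source used here gives the aligner, the read filters or the use of the spike-in. The 48 single-sample files held the same values as the tables.

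CPM were computed from column sums without 4 regions of very high counts on chromosomes 2, 17, 12 and 9, which took 9.80% to 17.0% of enhancer-region counts. Promoter CPM used promoter column sums. The minimum of 10 CPM was read as the mean over the 8 C57BL/6 libraries. The region set, its lists and the rule for named regions were chosen with earlier results of these data known. Named were the 10 lowest ratios, the 5 highest wild-type levels, the 5 largest rises and falls in Tg among regions that passed, the largest group, the longest and shortest region and those at each limit; regions of the fullest stretch and those beside named regions were added after their values were seen.

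Tg was tested against WT FVB x BALB/c with edgeR 4.0.16 (limma 3.58.1, R 4.3.3) on those 8 libraries: filterByExpr, TMM factors, robust quasi-likelihood fit and Benjamini-Hochberg adjustment at 0.05, leaving out chromosome Y and the 4 regions. C57BL/6 libraries stayed out since the rule selected on their spread. DESeq2 1.42.0 was an alternative. The fit was tested on simulated data. Depth without the 4 regions was 742211 to 1627858 counts in WT FVB x BALB/c and 1822721 to 2283528 in Tg. Replicate numbers did not pair libraries, with correlations of deviations from -0.03 to 0.04. Floors cover counting error only. The progenitor marker list is given without 1 gene that is not reported here.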

Additional observations from a re-analysis of the deposited data

Results flagged for a closer look

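In 4 of 144 groups of 4 values, 1 library stood apart from the other 3 by Dixon's criterion at the 95% level, where chance gives about 1 in 20. Chromosome Y enhancer-region counts were 10.1 CPM in Tg replicate 4 and 0.520 to 1.10 in the 3 other Tg libraries. At 104751824 on chromosome 12, the largest fall in Tg, Tg replicate 4 stood at 95.6 CPM and the 3 others at 56.2 to 56.5. At 111773713 on chromosome 8, Tg replicate 3 stood at 222 CPM and the 3 others at 242 to 245. At the 3 bp entry at 152224884 on chromosome 2, WT C57BL/6 replicate 1 stood at 41.2 CPM and the 3 others at 37.5 to 37.7.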

How the results depend on the processing

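The number of regions kept was 633 to 1124 under 8 other readings of the rule, being 658 with TMM library sizes, and 932 to 1009 when a C57BL/6 library was left out, which loosens the rule. In Tg the median log2 change of the regions, -0.11, was -0.20 with library totals, 0.092 with gene-end factors and -0.052 with offsets that follow abundance, and from -0.126 to -0.0904 without single libraries. The count of rises, 89, was 178 with gene-end factors, 64 with library totals and 52 with libraries thinned to equal depth, and 70 to 100 without single libraries. The count of falls, 197, was 62 with gene-end factors, 123 with DESeq2 and 259 with library totals, and 151 to 182 without single libraries. Without Tg replicate 4, which carried the most chromosome Y signal of its group, 100 rose and 182 fell. Fewer counts are tested after thinning; the cause of the other shifts was not tested. With the replicate number as a block 90 rose and 198 fell; the numbers mark no shared litter or batch in the labels. Neighbours within 50 kb were found for 100 regions and within 250 kb for 290.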
